A study of Mus musculus with 60 samples.

Results

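Solute carriers are the membrane proteins that move amino acids, sugars, nucleosides, organic ions, metals and vitamins across the plasma membrane and the membranes of organelles. Their genes were taken from an expression array of mouse hepatocytes by their symbol: Slc, a family number, letters and a member number. Slc7a11, Slc10a1, Slc2a2 and Slc40a1 were left out by the rule, and the probe with most values stood for each gene. This gave 230 genes of the 14442 with a probe of a single symbol. Of these, 167 passed the filter on missing values and were tested, and 63 did not. The symbol rule also takes in 5 genes that are named after a carrier without being one, namely Slc4a1ap, Slc6a19os, Slc7a6os, Slc9a3r1 and Slc9a3r2.

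Hepatocytes depend on these proteins for much of what the liver does. Uptake carriers bring in amino acids, fatty acids, bile acids and drugs, carriers of the Slc25 family join the cytosol to the mitochondrial matrix for the urea cycle, gluconeogenesis and ATP export, and Slc35 carriers feed nucleotide sugars into the Golgi apparatus. Hepatocyte growth factor (HGF) signals through the receptor tyrosine kinase Met, and hepatocytes in culture are known to lose part of their differentiated expression with time.

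Primary hepatocytes from male mice aged 9 to 10 weeks were left untreated or given HGF for 0.5 h, 2 h, 12 h or 24 h, at a dose that one label field gives as 50 ng/ml and another as 50 nM. The control cells, called WT here, came from C57BL mice heterozygous for a Cre transgene. The cells called KO came from Alb-Cre +/-; Met Fl/Fl mice, in which the albumin promoter drives Cre in hepatocytes, on a mixed 129SV/C57BL6 background. Each of the 10 groups held 3 replicates, which the protocol describes as cultures of individual mice, and no untreated culture was kept to the later times. Genotype and strain background therefore cannot be told apart, nor can HGF and time in culture. For the 12 h samples another label field reads 0.5 h, and their titles were followed.

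Every replicate was hybridised on 2 arrays with the dyes exchanged, against a pool of WT hepatocyte RNA. A level here is the mean of both log2 ratios to that pool after each array was centred on its median, so 0 means the pool's level and levels of different genes cannot be ranked against each other. No source used here states the direction of the ratio, which was taken as sample over pool on both dyes, and every sign below rests on that. Between both arrays of a replicate the ratios of all probes correlated negatively in 23 of 30 replicates, with r from -0.68 to 0.19. Called members are therefore named below only where the Cy5 and the Cy3 arrays gave differences of the same sign. This rule removes little, because a call rests on the mean of both dyes: all 25 members called at 24 h in WT met it. Members that were not called are named without it. Over all probes the differences on both dyes correlated with r from -0.66 (2 h against 0.5 h, KO) to 0.37 (genotypes averaged over times), and with r = -0.275 at 12 h in WT. The Cy5 array of WT untreated replicate 3 ran against the other Cy5 arrays, and its direction is not settled. The probe for Met gave KO minus WT differences between -0.03 and 0.30 in log2, none of which passed the test, and no source used here places this probe inside or outside the deleted part, so it does not check the labels. Being ratios to hepatocyte RNA, the values cannot show whether markers of other cells were present.

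The spread between replicates was uneven, from 0.167 in WT at 2 h to 0.43 in KO at 24 h (log2 SD). The test, limma with Benjamini-Hochberg adjustment over all 14580 probes at 0.05, shares 1 spread over the 10 groups. It is therefore lenient at 24 h and strict at 0.5 and 2 h, and a fit that weights each group by its own spread is given beside the counts of members. For the other alternatives the share of all probes is not given. Moves of the member counts there cannot be set against those of all probes. Array numbers fell into 4 sets. The 0.5 and 2 h arrays lie in a set of their own except those of KO 2 h replicate 3, which share a set with KO untreated replicate 3, so 0.5 and 2 h were compared with each other but not tested against untreated cells, and that comparison spans 2 sets in KO. The other untreated, 12 and 24 h arrays lie in 1 set except those of WT untreated replicate 3, both 24 h replicates 3 and 1 array of WT 24 h replicate 2, which lie in another.

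Promoter sequences (RefSeq, GRCm38.p6, mostly upstream of the start) were matched for 184 of the 230 members. Those of 4 members with a called difference are shown as examples. Slc22a18 had the smallest adjusted p among members between genotypes, Slc10a2 also differed by genotype, Slc37a2 fell with time in WT and Slc16a1 in KO. The call of Slc16a1 was lost in 9 of 18 alternatives. Only the first entry of a gene was searched. Slc6a4 and Slc29a1 were also called between genotypes. The entry of Slc6a4 and the first of 8 entries of Slc29a1 held none of the 6 motifs searched and are not shown. No entry was matched for Slc38a3, Slc1a5, Slc27a5 or Slc43a3. The search used both strands for the AP-1 letters TGANTCA, the HNF1 site, the HNF4 letters CAAAGTCC, the E-box CACGTG, the cyclic AMP element TGACGTCA and the amino acid response element TGATGNAAT, and capitals mark the matches. Of 32851 promoters of this length, 7.81% held the AP-1 letters, 0.399% the HNF1 site, 1.42% those of HNF4, 7.15% the E-box, 1.79% the cyclic AMP element and 0.965% the amino acid response element. Slc10a2 held the HNF1 site and the AP-1 letters once each, Slc37a2 the AP-1 letters once, Slc16a1 the E-box once and Slc22a18 none of the 6. The windows are Slc22a18 at chr7:143473539-143473838 (plus strand), Slc10a2 at chr8:5105238-5105537 (minus strand), Slc37a2 at chr9:37255689-37255988 (minus strand) and Slc16a1 at chr3:104638414-104638713 (plus strand).
Slc22a18: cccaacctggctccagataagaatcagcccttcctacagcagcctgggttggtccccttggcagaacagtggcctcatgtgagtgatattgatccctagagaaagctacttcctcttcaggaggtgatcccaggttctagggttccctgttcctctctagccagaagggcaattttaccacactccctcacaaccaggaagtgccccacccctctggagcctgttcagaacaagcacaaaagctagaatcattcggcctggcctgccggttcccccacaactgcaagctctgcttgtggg
Slc10a2: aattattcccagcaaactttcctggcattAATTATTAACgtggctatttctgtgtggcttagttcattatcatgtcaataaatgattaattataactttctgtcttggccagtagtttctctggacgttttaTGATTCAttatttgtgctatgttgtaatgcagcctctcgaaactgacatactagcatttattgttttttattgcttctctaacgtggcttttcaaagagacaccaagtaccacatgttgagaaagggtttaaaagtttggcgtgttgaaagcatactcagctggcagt
Slc37a2: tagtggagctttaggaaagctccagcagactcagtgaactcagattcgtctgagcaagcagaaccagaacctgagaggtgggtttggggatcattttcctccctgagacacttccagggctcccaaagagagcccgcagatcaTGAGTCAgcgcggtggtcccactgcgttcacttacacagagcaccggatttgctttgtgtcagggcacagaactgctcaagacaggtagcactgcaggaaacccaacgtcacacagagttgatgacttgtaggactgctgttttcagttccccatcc
Slc16a1: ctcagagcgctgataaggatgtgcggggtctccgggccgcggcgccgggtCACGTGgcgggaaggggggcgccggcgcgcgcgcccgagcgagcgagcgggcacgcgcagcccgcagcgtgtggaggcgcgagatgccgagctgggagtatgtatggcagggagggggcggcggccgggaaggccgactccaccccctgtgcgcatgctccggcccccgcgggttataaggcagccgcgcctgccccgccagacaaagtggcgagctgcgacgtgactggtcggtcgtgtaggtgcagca

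Across the 167 tested members, the range of the 10 group means had a median of 0.646 in log2. It stayed under 0.5 for 49 members and passed 1 for 37 and 2 for 3. Slc1a4, a neutral amino acid exchanger, had the narrowest range, from -0.10 to 0.14. The widest belonged to Slc37a2, a sugar phosphate exchanger, from -1.99 in WT at 24 h to 0.14 in KO at 2 h. The median level over members ran from -0.09 in WT at 24 h to 0.08 in WT at 0.5 h.

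The comparison of KO with WT asks which transporters depend on the genotype at a given time. In untreated cells no member was called (limma, adjusted p under 0.05), beside 0.0617% of all probes, and the weighted fit called none either, beside 0.0137%. At 0.5 h 7 members were called, which is 4.19% of the members beside 4.3% of all probes. Of these 2 were higher and 5 lower in KO, where 2% and 2.3% of all probes were. At 2 h none was called, beside 0.432%. At 12 h 10 were called, 5.99% beside 2.84%, with 6 higher and 4 lower (1.29% and 1.55% of all probes). At 24 h 12 were called, 7.19% beside 4.77%, with 8 higher and 4 lower (2.41% and 2.36% of all probes). With the weighted fit the counts were 34 at 0.5 h, 8 at 2 h, 16 at 12 h and 1 at 24 h, beside 19.8%, 4.52%, 4.49% and 1.11% of all probes. When only the 6 replicates compared were fitted they were 32, 6, 6 and 0. The single member left at 24 h with weights was Slc22a18. Leaving out 1 replicate moved the count at 0.5 h to between 1 (without WT replicate 3) and 5, at 12 h to between 4 (without WT replicate 1 or 2) and 8, and at 24 h to between 7 (without KO replicate 2) and 19 (without WT replicate 3). Averaged over the 5 times, 24 members were called, 14.4% beside 10.2% of all probes, with 14 higher and 10 lower in KO (5.05% and 5.15% of all probes). With weights 25 were called, beside 9.83%. Of those 24, 16 had the same sign at all 5 times.

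**Figure D1:**
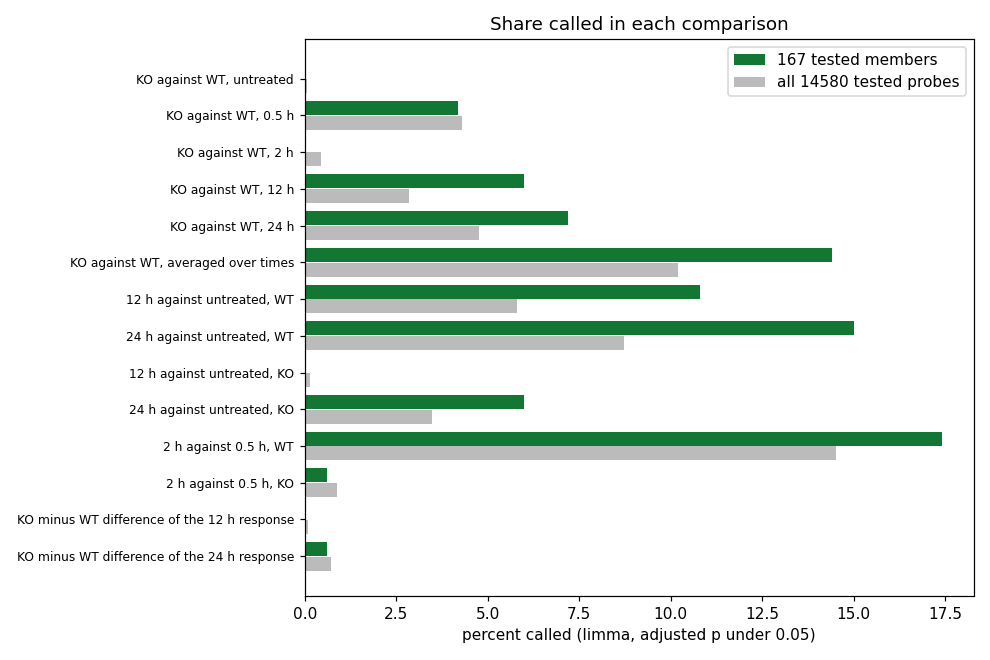
Percent called by limma (horizontal axis) among the 167 tested members (green) and among all 14580 tested probes (grey), for the 14 comparisons on the vertical axis. The 2 h against 0.5 h comparison in WT had the highest share of members, 17.4% beside 14.5% of probes, and 6 comparisons at the low end called 0.599% or fewer of the members.

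Of 19 organic ion carriers tested, 2 were called at 0.5 h, 3 at 12 h and 2 at 24 h, and averaged over times 4 were higher and 1 lower in KO. Of all probes 4.3%, 2.84% and 4.77% were called at these times, and 5.05% were higher and 5.15% lower on the average. With weights 6, 4 and 1 of the carriers were called, beside 19.8%, 4.49% and 1.11% of all probes. On the average 4 were then higher and 2 lower.

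Slc22a18 is an organic cation transporter-like protein encoded in the imprinted cluster of distal chromosome 7. In WT its levels were 0.09, 0.09 and 0.28 untreated, 0.35, -0.13 and 0.08 at 0.5 h, 0.00, -0.09 and -0.13 at 2 h, -0.31, -0.51 and -0.14 at 12 h, and -0.45, -0.20 and -0.39 at 24 h. In KO they were 0.47, 0.43 and 0.37 untreated, 0.39, 0.44 and 0.47 at 0.5 h, 0.40, 0.28 and 0.37 at 2 h, 0.63, 0.46 and 0.59 at 12 h, and 0.79, 1.24 and 1.18 at 24 h. Every KO replicate lay above every WT replicate of the same time, and the gap widened from 2 h on, with the highest levels in KO at 24 h. The KO minus WT difference was 0.88 ± 0.13 (SE) at 12 h, a fold of 1.84 (limma adjusted p = 0.000207), and 1.42 ± 0.13 at 24 h, a fold of 2.68 (limma adjusted p = 8.95e-08). At 24 h both dyes gave nearly the same size, 1.43 on Cy5 and 1.42 on Cy3. Averaged over times it was 0.67 ± 0.06 (limma adjusted p = 1.54e-08).

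Over time Slc22a18 moved in opposite directions in the 2 genotypes. In WT it fell by 0.50 ± 0.13 between untreated and 24 h (limma adjusted p = 0.012), and in KO it rose by 0.65 ± 0.13 (limma adjusted p = 0.00481). The difference of these responses was 1.15 ± 0.18 in log2 (limma adjusted p = 0.00113), and no other member passed the test of that difference, beside 0.727% of all probes (0.316% higher and 0.412% lower) and 0.144% with weights. No member passed it for the 12 h response, beside 0.0754%, or 0.0892% with weights. With only the 4 groups concerned in the fit, the adjusted p for Slc22a18 became 0.165, and with Cy5 arrays alone 0.105. Without WT 24 h replicate 3, 7 members passed the test of that difference. With only both 24 h groups in the fit, the genotype difference at 24 h had adjusted p = 0.0751.

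Slc47a1, the proton-coupled extruder of organic cations into bile and urine, stood apart at 0.5 h. Its levels there were -0.42, -0.49 and -0.65 in WT and 0.51, 0.67 and 0.16 in KO. The KO replicates all lay above the pool and the WT replicates all below it. The difference was 0.97 ± 0.22 (limma adjusted p = 0.0143), and averaged over times 0.53 ± 0.10 (limma adjusted p = 0.00129). In untreated cells WT replicate 3, at 0.78, lay above all 3 KO replicates. The call at 0.5 h was lost without WT replicate 3, KO replicate 1 or KO replicate 2.

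Slc10a2, the sodium-dependent bile acid carrier best known from the ileum, was at -0.45, -0.61 and -0.50 in WT at 12 h and at 0.30, 0.24 and -0.21 in KO. All WT replicates were lower than the lowest KO replicate, and in WT all 3 lay below all 3 untreated ones. The genotype difference at 12 h was 0.63 ± 0.13 (limma adjusted p = 0.00705; 0.0563 without KO replicate 1), and at 24 h, a value chosen after it was seen, 0.52 ± 0.13 (limma adjusted p = 0.0198). Slc10a7, another member of the bile acid carrier family, was lower in KO at 12 h by 0.43 ± 0.11 (limma adjusted p = 0.0412), with KO replicate 2 missing, a call lost in 9 of 14 alternatives. Slc22a12, the urate exchanger, was at 0.75, 0.74 and 0.81 in WT at 0.5 h and at 0.00, 0.15 and 0.08 in KO. These groups did not overlap, and the difference of -0.69 ± 0.15 (limma adjusted p = 0.0115) came almost wholly from the Cy3 arrays, -1.34 there and -0.05 on Cy5, and was not called without WT replicate 3.

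**Figure D2:**
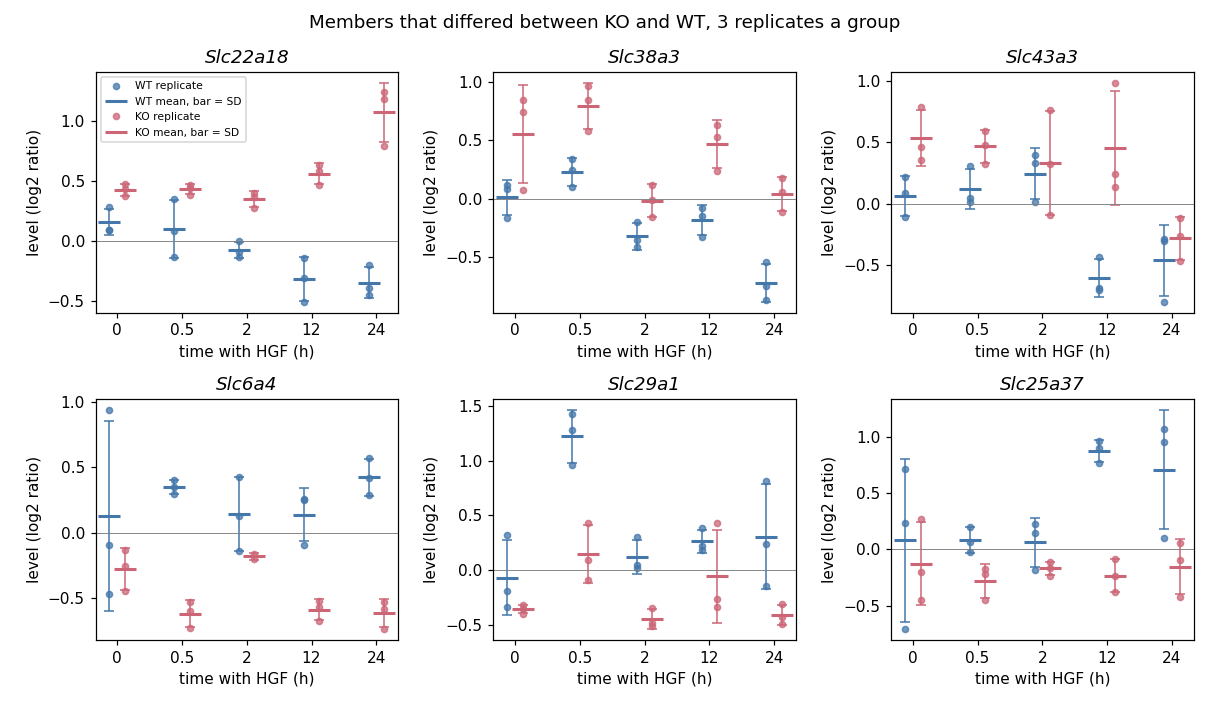
Levels (log2 ratio to the WT pool, vertical axis) of 6 members against time with HGF in hours (horizontal axis, not to scale) in WT (blue) and KO (red). Points are replicates, short lines means and bars SD over 3 replicates (2 for Slc6a4 in KO at 2 h); Slc22a18 reached a mean of 1.07 in KO at 24 h and -0.35 in WT, and Slc29a1 stood at 1.22 in WT at 0.5 h.

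Among 28 tested members of amino acid transporter families, 4 were called between genotypes at 0.5 h (1 higher, 3 lower in KO), 3 at 12 h (all higher) and 3 at 24 h (2 higher, 1 lower). Of all probes 4.3%, 2.84% and 4.77% were. With weights the counts were 9, 5 and 0, beside 19.8%, 4.49% and 1.11%. Averaged over times 3 were higher and 4 lower, and the median difference over all 28 was -0.01, beside 0.00 over all probes. The 28 include Slc6a19os and Slc7a6os, which are no carriers. Slc7a6os was 1 of the 4 lower, by 0.29 ± 0.06 (limma adjusted p = 0.00271). Slc43a3, counted here by its family number, is known as a carrier of purine bases.

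Slc38a3, the system N carrier that exchanges glutamine in hepatocytes, was higher in KO throughout. Its WT levels were 0.12, 0.08 and -0.16 untreated, 0.25, 0.10 and 0.34 at 0.5 h, -0.36, -0.41 and -0.20 at 2 h, -0.33, -0.15 and -0.08 at 12 h, and -0.86, -0.54 and -0.75 at 24 h. In KO they were 0.74, 0.84 and 0.08 untreated, 0.84, 0.58 and 0.96 at 0.5 h, -0.01, -0.16 and 0.12 at 2 h, 0.53, 0.24 and 0.63 at 12 h, and -0.11, 0.18 and 0.06 at 24 h. The genotypes overlapped only in untreated cells, where KO replicate 3 fell below WT replicates 1 and 2. The difference was 0.56 ± 0.16 at 0.5 h (limma adjusted p = 0.0469), 0.65 ± 0.16 at 12 h (limma adjusted p = 0.025) and 0.76 ± 0.16 at 24 h (limma adjusted p = 0.00539). Averaged over times it was 0.56 ± 0.07 (limma adjusted p = 8.93e-06), and it stayed called under all 40 alternatives run on that average, between 0.51 and 0.61. The call at 0.5 h was lost when any 1 of its 6 replicates was left out, that at 12 h without KO replicate 1 or 3, and without either of WT replicates 1 and 2, and that at 24 h with weights, where the adjusted p was 0.22. Both genotypes shared a drop between 0.5 and 2 h, by 0.55 ± 0.16 in WT (limma adjusted p = 0.0243) and by 0.81 ± 0.16 in KO (limma adjusted p = 0.0186).

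Slc6a4, the serotonin transporter, went the other way. At 0.5 h its levels were 0.35, 0.29 and 0.40 in WT and -0.53, -0.73 and -0.60 in KO. At 24 h they were 0.42, 0.57 and 0.28 in WT and -0.74, -0.53 and -0.59 in KO. WT lay above the pool and KO below it at both times, with no overlap. The differences were -0.97 ± 0.22 (limma adjusted p = 0.0125) and -1.04 ± 0.22 (limma adjusted p = 0.00446), and over all times -0.69 ± 0.10 (limma adjusted p = 3.83e-05). At 0.5 h the difference was -1.56 on the Cy3 and -0.38 on the Cy5 arrays, and its call was lost with Cy5 arrays alone. At 24 h it was -1.13 on Cy3 and -0.95 on Cy5. With weights the adjusted p at 24 h was 0.0785, and the call at 0.5 h was lost without WT replicate 3 or KO replicate 2. Untreated WT replicates ranged from -0.47 to 0.94 and overlapped with KO.

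Slc43a3 was at -0.70, -0.68 and -0.43 in WT at 12 h and at 0.24, 0.98 and 0.14 in KO, with no overlap. The difference was 1.06 ± 0.21, a fold of 2.08 (limma adjusted p = 0.00393), and it averaged 0.43 ± 0.09 over times (limma adjusted p = 0.0028). Slc1a5, the exchanger of glutamine and other neutral amino acids, was at -0.30, -0.04 and -0.49 in WT at 0.5 h and at -1.17, -1.41 and -1.40 in KO. All KO replicates lay below all WT replicates. The difference of -1.05 ± 0.27 (limma adjusted p = 0.0258) lost its call when any 1 of the 6 replicates was left out, with adjusted p between 0.0505 and 0.108. It was -1.67 on the Cy3 and -0.43 on the Cy5 arrays, and was not called with Cy5 arrays alone. Slc7a10, a carrier of small neutral amino acids, differed by -0.58 ± 0.16 at 0.5 h (limma adjusted p = 0.0443), a call lost when any 1 replicate except KO replicate 3 was left out. This call was also lost with Cy5 arrays alone, where the difference was -0.29 beside -0.88 on Cy3.

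The nucleoside carriers were 4 tested genes. Of these Slc29a1, the equilibrative nucleoside transporter of the plasma membrane, was called lower in KO at 0.5 and 24 h and averaged over times. In WT its levels were -0.33, 0.32 and -0.19 untreated, 1.28, 0.96 and 1.43 at 0.5 h, 0.02, 0.04 and 0.30 at 2 h, 0.22, 0.39 and 0.19 at 12 h, and -0.14, 0.82 and 0.24 at 24 h. In KO they were -0.32, -0.40 and -0.35 untreated, 0.10, 0.43 and -0.09 at 0.5 h, -0.48, -0.34 and -0.51 at 2 h, -0.34, -0.26 and 0.43 at 12 h, and -0.31, -0.43 and -0.49 at 24 h. The WT replicates at 0.5 h stood above every other replicate of either genotype. The genotype difference there was -1.07 ± 0.21 (limma adjusted p = 0.00486), made of -1.75 on the Cy3 and -0.40 on the Cy5 arrays, and WT fell by 1.10 ± 0.21 from 0.5 to 2 h (limma adjusted p = 0.00182). The averaged difference was -0.59 ± 0.09 (limma adjusted p = 0.000106). The 24 h difference of -0.72 ± 0.21 (limma adjusted p = 0.0472) fell to -0.46 without WT replicate 2, where the adjusted p was 0.252. At 0.5 h 1 of 5 stellate cell markers (Dcn), 1 of 5 bile duct markers (Cftr) and 1 of 2 red cell markers (Hba-a1) were also called lower in KO, and 1 of 9 hepatocyte markers (Cps1) higher. At 12 h 1 of 4 endothelial markers (Dnase1l3) was called lower in KO, by 1.32 ± 0.23 (limma adjusted p = 0.00166). At 24 h 1 of 6 Kupffer cell markers (Mpeg1) and 1 of 9 hepatocyte markers (Asgr1) were called higher in KO, and 1 of 4 endothelial (Dnase1l3) and 1 of 5 bile duct markers (Krt7) lower. Averaged over times 2 of 9 hepatocyte markers (Cps1 and Asgr1) were higher in KO and none lower. Mpeg1, the stellate marker Acta2 and the red cell marker Alas2 were also higher on that average, and Cftr, Dnase1l3 and the endothelial marker Clec4g lower. Of all probes 4.3% were called at 0.5 h, 2.84% at 12 h, 4.77% at 24 h and 10.2% averaged over times. The part of these markers in the genotype differences was not tested.

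Of 30 tested mitochondrial carriers, none was called between genotypes at 0.5 h, 2 at 12 h and 3 at 24 h, beside 4.3%, 2.84% and 4.77% of all probes. With weights 3, 3 and 0 were called, beside 19.8%, 4.49% and 1.11%. Slc25a37, mitoferrin-1, which imports iron into mitochondria, was at 0.96, 0.90 and 0.77 in WT at 12 h and at -0.09, -0.38 and -0.24 in KO. The WT replicates all stood well above the pool and the KO replicates all below it. The difference was -1.11 ± 0.26 (limma adjusted p = 0.0153), and averaged over times -0.55 ± 0.11 (limma adjusted p = 0.00189). The 12 h call was lost without KO replicate 2, and without either of WT replicates 1 and 2. Slc25a23, a calcium-regulated carrier of ATP-Mg and phosphate, was at -0.41, -0.38 and -0.36 in WT at 12 h and at 0.74, 3.26 and 0.06 in KO. The KO replicates lay above WT, but replicate 2 stood far from the other KO replicates, and without it the 12 h difference of 1.74 ± 0.42 (limma adjusted p = 0.0226) became 0.78 and was still called (adjusted p = 0.0124). The call was lost without any 1 of the WT replicates, with Cy3 arrays alone and with only both 12 h groups in the fit, and without KO replicate 3 the difference was 2.38.

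Slc25a20, which carries acylcarnitines for fatty acid oxidation, was higher in KO at 24 h by 0.51 ± 0.14 (limma adjusted p = 0.0392), and Slc25a4, an adenine nucleotide translocator, was lower by 0.68 ± 0.18 (adjusted p = 0.0274). The replicates of Slc25a4, named here because WT called it over time, overlapped between genotypes. Slc25a13, the aspartate-glutamate carrier citrin, was called lower in KO at 24 h with levels of 0.14, -2.32 and -0.77 there and 0.59, 1.00 and -0.35 in WT. These groups overlapped too, and KO replicate 2 was the lowest by far.

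In the other families few members were called between genotypes. At 12 h Slc8b1, the mitochondrial sodium-calcium exchanger, was lower in KO by 0.64 ± 0.15 (limma adjusted p = 0.0127), and Slc35a1, which carries CMP-sialic acid into the Golgi apparatus, was lower by 0.58 ± 0.15 (limma adjusted p = 0.029). The call of Slc35a1 was lost when any 1 of the 6 replicates was left out and in 10 of 14 alternatives in all, and that of Slc8b1 was lost without KO replicate 3, and without either of WT replicates 1 and 2. At 24 h Slc4a4, a sodium bicarbonate cotransporter, was higher in KO by 1.07 ± 0.31 (limma adjusted p = 0.0439), with WT replicate 1 missing. This call was lost in 10 of 17 alternatives, among them those without WT replicate 3, where the difference was 0.56, and without KO replicate 1 or 2. Slc48a1, a heme transporter, was higher by 0.64 ± 0.18 (limma adjusted p = 0.0435), and Slc35f5 was higher by 0.83 ± 0.23 (limma adjusted p = 0.0412), its WT replicate 3 lying at -1.83 beside -0.43 and -0.49. Without that replicate the difference of Slc35f5 was 0.37 and not called, and its call was also lost without KO replicate 2. The call of Slc48a1 was lost without KO replicate 1 or 2, and without either of WT replicates 1 and 3. Averaged over times Slc12a4, a potassium-chloride cotransporter, was lower in KO by 0.36 ± 0.08 (limma adjusted p = 0.00567). None of the 14 metal carriers, 12 of them in the zinc families Slc30 and Slc39, was called between genotypes in any comparison of the main fit. With weights 2 were lower in KO at 0.5 h, 1 of them in the zinc families, beside 19.8% of all probes called.

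**Figure D3:**
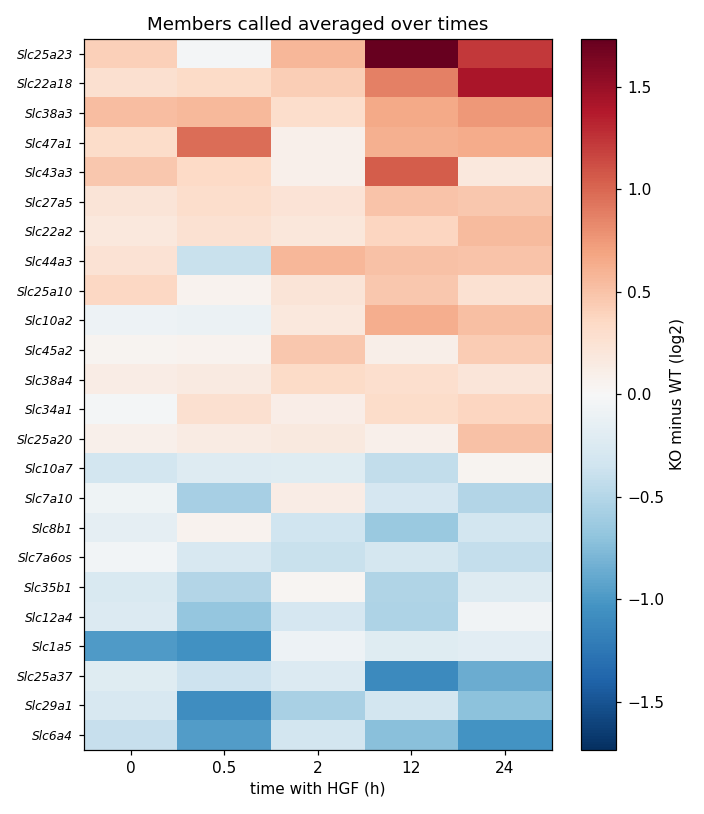
KO minus WT difference in log2 (colour) at each time with HGF in hours (horizontal axis) for the 24 members called on the average over times (vertical axis, ordered by that average). Slc22a18 and Slc38a3 were positive and Slc6a4 and Slc29a1 negative at all 5 times, while Slc10a2 was negative in untreated cells and at 0.5 h and positive later.

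The comparisons with untreated cells ask how transporter expression moved during culture with HGF. In WT 18 members were called at 12 h, 10.8% beside 5.81% of all probes, with 4 higher and 14 lower (2.65% and 3.16% of all probes). At 24 h 25 were called in WT, 15% beside 8.72%, with 5 higher and 20 lower (3.96% and 4.76% of all probes). In KO none was called at 12 h, beside 0.13%. At 24 h 10 were called in KO, 5.99% beside 3.48%, with 2 higher and 8 lower (0.535% and 2.94% of all probes). With weights the counts were 9 and 6 in WT, beside 4.13% and 2.15%, and 1 and 9 in KO, beside 0.796% and 2.68%. No member was called in any of the 4 comparisons when only the 6 replicates concerned were fitted. Without the replicates whose Cy5 array lay in the smallest array sets, 15 and 28 members were called in WT and 0 and 24 in KO. WT 24 h replicate 2 stayed in, though its Cy3 array lay in such a set. With the unsettled array of WT untreated replicate 3 turned, 16 and 37 were called in WT, and 5 and 33 without the pair of replicates that stood apart most, WT untreated replicate 3 and KO 24 h replicate 2. Leaving out 1 replicate gave 4 (without WT untreated replicate 3, or 12 h replicate 1 or 2) to 18 in WT at 12 h, 16 (without 24 h replicate 1) to 32 in WT at 24 h, and 3 (without untreated replicate 1) to 24 (without 24 h replicate 3) in KO at 24 h.

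The median difference at 24 h in WT was -0.15 over the members and -0.03 over all probes, and in KO -0.02 and 0.00. By family, WT at 24 h had 6 of 19 organic ion carriers lower and none higher, and 4 of 14 lipid and vitamin carriers lower and none higher. It had 4 lower and 1 higher of 28 amino acid carriers, 4 lower and 2 higher of 29 sugar and nucleotide sugar carriers, and 2 higher and none lower of 30 mitochondrial carriers. Of all probes 4.76% were lower and 3.96% higher. With weights 2 organic ion, 1 lipid and vitamin, 1 amino acid and 2 sugar and nucleotide sugar carriers were called, all lower. No mitochondrial carrier was, beside 2.15% of all probes in both directions. Hepatocyte markers were called too: of 9 tested, 4 were lower at 24 h in WT and 5 in KO, Apoa1, Ttr and Asgr1 among them. At 12 h 3 of the 9 were lower in WT (Cps1, Apoa1 and Asgr1) and 1 in KO (Cps1). The part of the hepatocyte markers in the carriers' fall was not tested. Markers of other cells were also called at 24 h. In WT 2 of 6 Kupffer cell markers (Mpeg1 and Marco), 1 of 5 stellate (Col3a1), 1 of 4 lymphocyte (Cd79b) and 1 of 2 red cell markers (Alas2) were lower, and of 5 bile duct markers Cftr was lower and Krt7 higher. In KO Marco, Col3a1 and Cd79b were lower. At 12 h in WT Mpeg1, Col3a1 and Cftr were lower and Krt7 higher. Of all probes 8.72% were called at 24 h in WT, 3.48% at 24 h in KO, 5.81% at 12 h in WT and 0.13% at 12 h in KO. The part of these markers was not tested either.

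Of the 25 members called at 24 h in WT and the 10 in KO, 5 were called in both, 20% of the WT calls and 50% of the KO calls. Over all probes 203 were called in both, 16% of 1271 WT calls and 40% of 507 KO calls. These 5, named because of that overlap, were Slc27a5, Slc1a5, Slc3a2 and Slc22a2, lower in both, and Slc22a18, lower in WT and higher in KO. No replicate was shared between these comparisons. Of the 25 WT calls 20 had the same sign in KO, 80% beside 79.5% of the WT calls over all probes.

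Slc27a5, which activates and takes up fatty acids and bile acids in the liver, fell most regularly. Its WT levels were -0.41, -0.35 and 0.18 untreated, -0.26, -0.35 and -0.17 at 0.5 h, -0.37, -0.19 and -0.34 at 2 h, -1.52, -1.04 and -1.10 at 12 h, and -2.36, -1.56 and -1.26 at 24 h. In KO they were 0.03, 0.00 and 0.05 untreated, 0.16, 0.00 and -0.02 at 0.5 h, -0.22, 0.13 and -0.12 at 2 h, -0.49, -0.97 and -0.74 at 12 h, and -1.72, -1.28 and -0.78 at 24 h. In both genotypes every replicate at 12 and 24 h lay below every earlier one. The 24 h change was -1.53 ± 0.22 in WT, 2.90-fold lower (limma adjusted p = 6.44e-05), and -1.28 ± 0.22 in KO, 2.43-fold lower (limma adjusted p = 0.00196). At 12 h WT changed by -1.03 ± 0.22 (limma adjusted p = 0.00808), which became -0.84 without WT untreated replicate 3 (adjusted p = 0.0675), and its call was also lost without WT 12 h replicate 1.

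Slc27a2, a very long chain acyl-CoA synthetase and fatty acid transporter, was at -0.84, -0.59 and 0.35 in untreated WT cells, at -1.83, -1.95 and -1.54 at 12 h and at -2.91, -1.21 and -1.24 at 24 h. The later replicates were all lower than the untreated ones. The changes were -1.42 ± 0.42 (limma adjusted p = 0.0473) and -1.43 ± 0.42 (limma adjusted p = 0.0334). Without WT 24 h replicate 1 the 24 h change was -0.87 (adjusted p = 0.235), and its call was also lost without untreated replicate 2 or 3. At 12 h the call was kept only without untreated replicate 1 among the 6 replicates left out in turn. In KO at 24 h its levels were -1.42, -1.16 and 0.73, with replicate 3 above all untreated replicates, and the change of -0.51 ± 0.42 was not called.

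Slc1a5 in WT was at -1.03, 0.61 and -0.49 untreated, -1.68, -1.73 and -1.57 at 12 h and -2.48, -1.85 and -1.82 at 24 h. In KO it was at -1.43, -1.39 and -1.04 untreated, -1.77, -2.02 and -1.83 at 12 h and -2.61, -2.38 and -1.69 at 24 h. Untreated WT cells spread widely, and every replicate at 12 and 24 h lay below every untreated one of its genotype. The 24 h change was -1.75 ± 0.27 in WT (limma adjusted p = 0.000112) and -0.94 ± 0.27 in KO (limma adjusted p = 0.0487). The KO call was lost in 13 of 18 alternatives.

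Slc37a2 was at -1.13, -0.23 and 0.39 in untreated WT cells and at -2.85, -1.80 and -1.33 at 24 h, lower in every replicate. The change was -1.67 ± 0.38, 3.18-fold (limma adjusted p = 0.00597), and -1.43 ± 0.38 at 12 h (limma adjusted p = 0.0273). Without WT 24 h replicate 1 the adjusted p at 24 h was 0.0556, and at 12 h the call was lost without any 1 replicate except untreated replicate 1. In KO the 24 h change was -1.11 ± 0.38 and was not called. Slc3a2, the heavy chain that carries several amino acid exchangers to the membrane, was at 0.26, 0.35 and -0.12 untreated and -0.65, -0.37 and -0.93 at 24 h in WT, and at 0.05, 0.08 and 0.04 untreated and -0.70, -0.23 and -0.90 at 24 h in KO. In both genotypes all 24 h replicates were lower, by 0.81 ± 0.17 (limma adjusted p = 0.00335) and 0.67 ± 0.17 (limma adjusted p = 0.0305). Its light chain partner Slc7a5 changed by 0.30 ± 0.19 in WT and -0.31 ± 0.19 in KO, neither of them called.

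Slc22a2, an organic cation uptake carrier, was at 0.37, 0.03 and -0.01 in untreated WT cells and -0.89, -1.11 and -0.63 at 24 h. In KO it was at 0.30, 0.10 and 0.54 untreated and -0.60, -0.49 and 0.10 at 24 h, where replicate 3 stood just below the lowest untreated one. The changes were -1.01 ± 0.18 (limma adjusted p = 0.00068) and -0.65 ± 0.18 (limma adjusted p = 0.0466). Slc12a5, a potassium-chloride cotransporter, fell in WT by 1.11 ± 0.23 (limma adjusted p = 0.00308), and Slc2a5, the fructose carrier, fell at 12 h by 1.04 ± 0.28 (limma adjusted p = 0.0301), a call lost without any 1 replicate except untreated replicate 1. The zinc exporter Slc30a1, the only metal carrier called at 12 or 24 h against untreated cells, was lower in WT at 12 h by 0.55 ± 0.16 (limma adjusted p = 0.0422) and at 24 h by 0.57 ± 0.16 (limma adjusted p = 0.0234), and its 24 h replicates overlapped with the untreated ones.

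**Figure D4:**
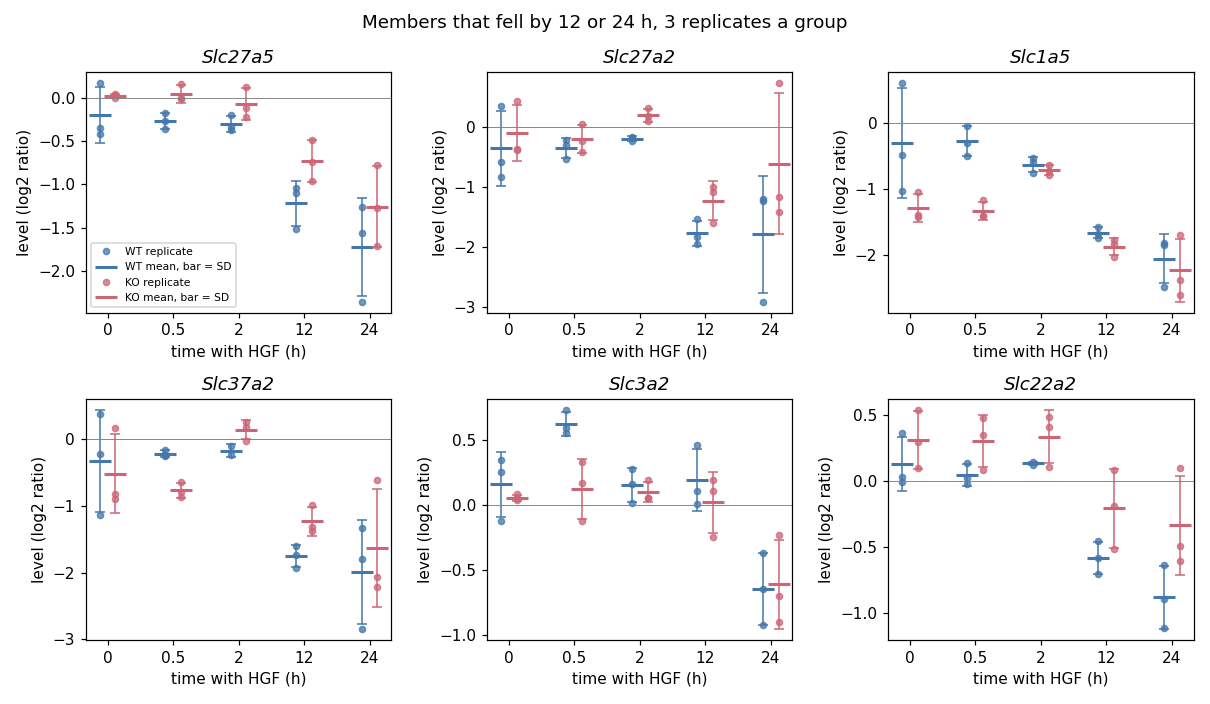
Levels (log2 ratio to the WT pool, vertical axis) of 6 members against time with HGF in hours (horizontal axis, not to scale) in WT (blue) and KO (red), with replicates as points, means as short lines and SD as bars over 3 replicates (2 for Slc37a2 and Slc22a2 in WT at 2 h). Slc27a5 went from -0.20 in untreated WT cells to -1.73 at 24 h and from 0.03 to -1.26 in KO.

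Few members rose. In WT Slc25a4 was at -0.06, -0.07 and -0.23 untreated and at 0.75, 0.57 and 0.48 at 12 h and 0.63, 0.96 and 0.22 at 24 h. Every replicate at 12 and 24 h lay above every untreated one, with changes of 0.72 ± 0.18 at both times (limma adjusted p = 0.0198 and 0.0117). The 12 h call was lost without untreated replicate 3 or 12 h replicate 1 or 2, and the 24 h call without 24 h replicate 2. Slc16a3, a lactate exporter, rose at 12 h by 0.59 ± 0.18 (limma adjusted p = 0.0473) with replicate 3 missing, a call kept in 2 of 18 alternatives and lost when any 1 replicate was left out. At 24 h Slc7a10, Slc35b4 and Slc35f4 rose by 0.59, 0.49 and 0.73. Leaving out 24 h replicate 1 ended the calls of Slc7a10 and Slc35b4. That of Slc7a10 was also lost without 24 h replicate 2 or untreated replicate 1 or 3, and that of Slc35f4 without 24 h replicate 2 or 3 or untreated replicate 1 or 2. In KO Slc44a3, a choline transporter-like protein, was at 0.12, 0.30 and -0.02 untreated and at 1.17, 0.49 and 0.98 at 24 h, a rise of 0.74 ± 0.18 (limma adjusted p = 0.0212) whose call was lost without 24 h replicate 1 or untreated replicate 1 or 3.

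In KO at 24 h Slc19a2, a thiamine carrier, was at 0.29, 0.18 and 0.02 untreated and at -0.56, -0.34 and -0.69 with HGF, with no overlap. It fell by 0.69 ± 0.13 (limma adjusted p = 0.00271). Slc16a1, the monocarboxylate carrier for lactate and ketone bodies, fell by 0.83 ± 0.22 (limma adjusted p = 0.0367), Slc25a22, a mitochondrial glutamate carrier, by 0.53 ± 0.11 (limma adjusted p = 0.00579) and Slc43a3 by 0.82 ± 0.21 (limma adjusted p = 0.0273). The calls of Slc16a1 and Slc43a3 were lost without any 1 of the untreated replicates, that of Slc16a1 also without 24 h replicate 1 or 3 and that of Slc43a3 without 24 h replicate 2. In WT the changes of these 4 were -0.38, -0.39, -0.27 and -0.53 in the same order, none of them called, and the test of the difference between genotypes passed for none.

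**Figure D5:**
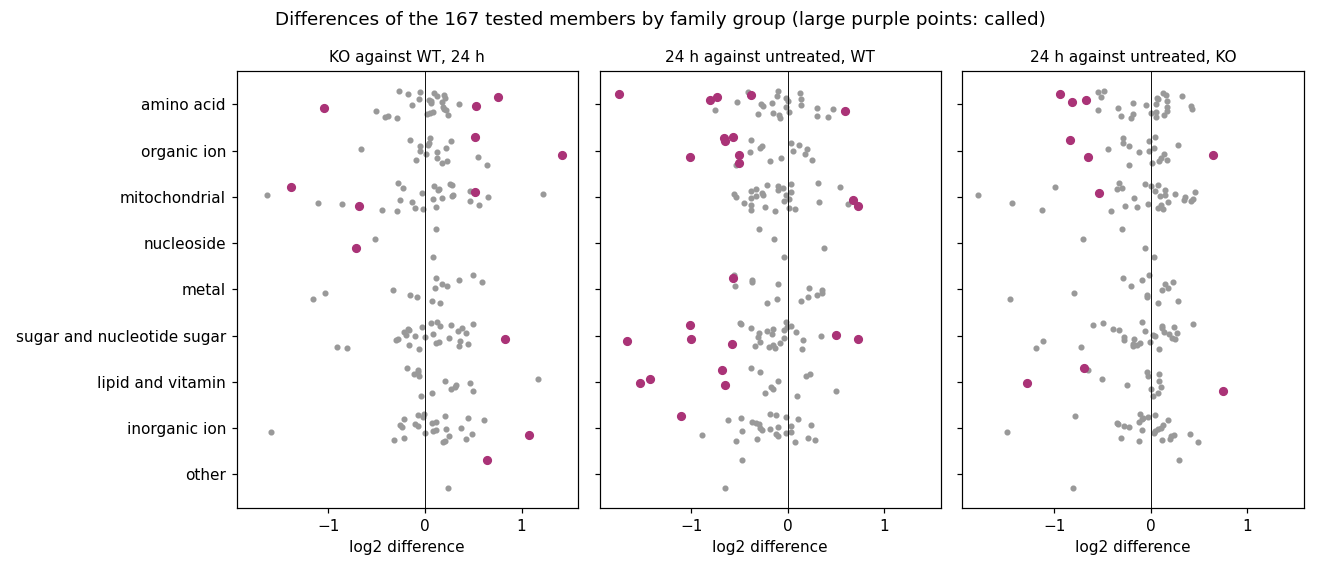
Log2 difference (horizontal axis) of each of the 167 tested members, 1 point a gene, by family group (vertical axis) for KO against WT at 24 h and for 24 h against untreated cells in WT and in KO. Large purple points are called (12, 25 and 10 members); in WT the called organic ion and lipid and vitamin carriers all lie left of 0.

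Between 0.5 and 2 h 29 members were called in WT, 17.4% beside 14.5% of all probes, with 6 higher and 23 lower at 2 h (4.47% and 10.1% of all probes). In KO 1 was called, lower, beside 0.871% of all probes, 0.466% higher and 0.405% lower. These times had the smallest spread, and with weights the counts were 66 in WT and 24 in KO, beside 36.5% and 10.6%. Leaving out 1 replicate gave 8 (without 2 h replicate 1) to 22 in WT. Within 1 array set, without KO 2 h replicate 3, 11 were called in KO. The KO call was Slc38a3, described above. In KO the differences of all probes on the Cy5 and on the Cy3 arrays correlated with r = -0.66.

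In WT 8 of 28 members of amino acid carrier families were lower at 2 h and none higher, beside 10.1% and 4.47% of all probes. With weights 14 were lower and 2 higher, where 36.5% of all probes were called. Slc29a1 fell most, and Slc6a9, a glycine transporter, fell by 0.80 ± 0.27 (limma adjusted p = 0.0437), Slc1a2, a glutamate transporter of hepatocytes around the central vein and of astrocytes, by 0.73 ± 0.15 (limma adjusted p = 0.00299). Of the mitochondrial carriers Slc25a39, which takes up glutathione, fell by 0.78 ± 0.22 (limma adjusted p = 0.021), and Slc25a5, the adenine nucleotide translocator of most proliferating cells, by 0.71 ± 0.20 (limma adjusted p = 0.0202). The levels of Slc25a5 were 0.53, 0.61 and 0.69 at 0.5 h and -0.27, -0.03 and 0.00 at 2 h, with no overlap. Higher at 2 h were Slc25a27, an uncoupling protein, by 1.15 ± 0.37 (limma adjusted p = 0.0403), Slc8a1, a sodium-calcium exchanger, by 0.88 ± 0.22 (limma adjusted p = 0.00979), Slc17a6 by 0.57 ± 0.19 (limma adjusted p = 0.0495), Slc8b1 by 0.51 ± 0.15 (limma adjusted p = 0.0221) and Slc31a2, of the copper carrier family, by 0.48 ± 0.16 (limma adjusted p = 0.044). The calls of Slc25a27, Slc17a6 and Slc6a9 were lost when any 1 of the 6 replicates was left out. That of Slc31a2 was kept only without 2 h replicate 2 and that of Slc8b1 only without 0.5 h replicate 2. Slc8a1 lost its call without 2 h replicate 1 or 2, and Slc25a39 and Slc25a5 without 2 h replicate 1 or 0.5 h replicate 2 or 3. For Slc25a27 the rise was 1.94 on the Cy5 and 0.16 on the Cy3 arrays. Of the cell markers, 1 of 4 endothelial (Cdh5) and 1 of 5 stellate (Dcn) were also lower at 2 h in WT. So were 1 of 5 bile duct (Cftr) and 1 of 2 red cell markers (Hba-a1), and none of 9 hepatocyte markers was called. The part of these markers in the early step was not tested.

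Other transporters that are no solute carriers by symbol, 16 tested of a list of 24 channels, pumps and organic anion carriers, were called as follows: 2 between genotypes at 0.5 h, 2 at 12 h and 5 at 24 h, and 5 over time at 24 h in WT (1 higher, 4 lower) and 2 in KO (both lower). Of all probes 4.3%, 2.84% and 4.77% were called between genotypes at these times, and 8.72% and 3.48% over 24 h in WT and KO. Averaged over times 5 were higher and 4 lower in KO, beside 5.05% and 5.15% of all probes. Between 0.5 and 2 h 7 were lower and none higher in WT, beside 10.1% and 4.47%, and none was called in KO. At 12 h in WT 3 were lower and 1 higher than untreated, beside 3.16% and 2.65%. Aqp8, a water channel, fell by 1.82 ± 0.18 at 24 h in WT (limma adjusted p = 2.67e-07) and by 1.04 ± 0.18 in KO (limma adjusted p = 0.00173). Of 12 tested targets of the amino acid response factor ATF4, 1 was higher and none lower at 24 h in WT, and 2 were lower in KO. Of all probes 3.96% were higher and 4.76% lower in WT, and 2.94% lower in KO. Between genotypes 3 of these targets were lower in KO at 24 h (Ddit4, Shmt2 and Phgdh) and 1 at 0.5 h (Cth). Averaged over times 2 were lower (Cth and Phgdh), and none was higher in any of these 3 comparisons. Of all probes 2.36% were lower at 24 h, 2.3% at 0.5 h and 5.15% on the average. These lists and the cell markers were counted in the unweighted fit only.

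Of a panel of 37 transporters known from liver, 32 were members and 27 were tested, and 11 of those were called in none of the 14 comparisons, 40.7% beside 67.9% of all tested probes and 57.5% of the tested members. Among these 11, Slc2a1, the glucose carrier of most cells, had differences between -0.20 and 0.36, Slc29a3, a nucleoside carrier of lysosomes, between -0.22 and 0.17, and Slc37a4, the glucose-6-phosphate carrier of the endoplasmic reticulum, between -0.37 and 0.52. Slc25a15, the ornithine carrier of the urea cycle, ranged from -0.35 to 0.38, and Slc25a1, the citrate carrier, from -0.64 to 0.36.

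The 63 members that did not pass the filter had 33 to 58 values on the 60 arrays, and 47 of them had 2 replicates in at least 8 groups. Slc32a1, a vesicular carrier of inhibitory amino acids chosen here for its low levels, had -0.99, -0.67 and -0.22 in untreated WT cells and -1.98, -1.19 and -0.85 at 24 h, and failed only through KO at 2 h, where 1 value was left. Slc38a2, the system A carrier induced by amino acid shortage, had no value in WT at 0.5 h and stood at -0.58 in KO there (n = 3). Slc22a7, Slc16a10, Slc13a3 and Slc17a1, all known from the liver, also failed the filter.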

How the data were processed

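Expression was measured on 60 arrays with 2 dyes, 2 per replicate, for 30 replicates in 10 groups. The authors deposited normalized log2 ratios per probe; the base was inferred from the range of values, and numerator, normalization and software are not given in the sources used here. Replicates are described as cultures of individual mice, per the labels' protocols. Depth does not apply to arrays, and their number limits the precision.

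The median of each array was set to 0 and both dye orientations were averaged. Probes needed 2 replicates in each group, which kept 14580 of 21997. One mean per group was fitted with limma 3.58.1 (R 4.3.3, statmod 1.5.0), with eBayes and Benjamini-Hochberg adjustment at 0.05; the average over times took the replicate of each genotype as a random block. The scripts were tested on simulated data.

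Named members are the 5 highest and 5 lowest called ones without overlap and with equal sign on both dyes, plus a panel of liver transporters; others are said to be chosen after their values were seen. Members and lists were chosen with earlier results of these data known. Alternatives covered centring, scaling, filter, dye, weights, samples fitted, array set, replicate block and each replicate left out.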

Additional observations from a re-analysis of the deposited data

Results flagged for a closer look

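The change of Slc22a18 between untreated cells and 24 h of HGF differed between the genotypes by a test of that difference itself: KO minus WT was 1.149 in log2 with an SE of 0.179 (limma adjusted p = 0.00113). All 3 KO replicates at 24 h lay above the untreated KO replicates and all 3 WT replicates below the untreated WT replicates. Over the alternatives it lay between 0.93 and 1.37.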

How the results depend on the processing

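Counts of called members are given against those of the report. Shares of all probes are given above for the main and the weighted fit only. Moves under the other settings therefore cannot be read as particular to the members. With scaled arrays they were 13 for KO against WT at 2 h, 4 at 12 h, 3 at 24 h, 2 and 1 for 12 h against untreated in WT and KO, and 53 and 6 for 2 h against 0.5 h. Without the probe filter 11 were called at 0.5 h. With Cy5 arrays alone they were 1 at 0.5 h, 4 at 12 h, 12 averaged over times, 8 and 16 over time in WT, 3 in KO at 24 h, 19 and 19 between 0.5 and 2 h, and 0 for the difference of 24 h responses. With Cy3 arrays alone they were 16 at 0.5 h, 1 at 12 h, 6 at 24 h, 8 averaged, 1 in KO over 24 h, and 16 and 9 between 0.5 and 2 h. With weights they were 34, 8, 16 and 1 for KO against WT at 0.5, 2, 12 and 24 h, 9 and 6 over time in WT, 1 at 12 h in KO, and 66 and 24 between 0.5 and 2 h. With only the groups compared they were 32, 6, 6 and 0 for KO against WT, 0 for 12 and 24 h in WT and 24 h in KO, 59 and 16 between 0.5 and 2 h, and 0 for the difference of 24 h responses. With the unsettled array turned, or without both replicates that stood apart, 3 members passed that difference, and the latter left 5 in WT at 12 h and 33 at 24 h. With the set of the Cy5 array as a term they were 1 untreated, 24 at 24 h, 40 and 17 over 24 h in WT and KO, and 5 for the difference of responses. Without the replicates whose Cy5 array lay in the smallest sets they were 1 untreated, 2 at 2 h, 24 in KO over 24 h, 11 in KO between 0.5 and 2 h and 3 for the difference. WT 24 h replicate 2, with a Cy3 array in such a set, stayed in. Except where the setting itself drops genes or samples, the cause was not tested.

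Leaving out 1 replicate gave 0 to 1 untreated, 1 to 5 at 0.5 h, 0 to 0 at 2 h, 4 to 8 at 12 h, 7 to 19 at 24 h and 21 to 30 averaged. Over time it gave 4 to 18 and 16 to 32 in WT, 0 to 1 and 3 to 24 in KO, 8 to 22 and 0 to 1 between 0.5 and 2 h, and 0 to 0 and 1 to 7 for the differences of responses. With the replicate block 11 were called in WT at 12 h, 6 at 0.5 h and 26 in WT at 24 h; without the random block that the average took for the replicate of each genotype (estimated correlation -0.00231) 24 were called on the average. For only 10 of 30 replicates was the best correlation with the same number, so the numbers were not taken as pairing samples across genotypes or times. Of 1372 values of 70 named members and comparisons, 0 reversed, 393 lost the call and 979 kept it.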
